A study of Mus musculus with 9 samples.

Results

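Hemoglobin and erythroid transcripts were followed as a measure of red cells in laser-captured mouse eye tissue. The set was defined by name as 6 of the 24421 gene symbols in the count tables, and all 6 had a row. They are the adult alpha globins Hba-a1 and Hba-a2, the adult beta globins Hbb-bs and Hbb-bt, Alas2 and Slc4a1. The tissue was retinal pigment epithelium (RPE) and choroid with a lesion of choroidal neovascularization, in which vessels grow from the choroid through a laser-made break in Bruch membrane. Male mice aged 8 weeks received 4 burns per eye, and every eye received an injection of 5 µg of a reagent into the vitreous. The 3 groups of 3 libraries were Fc, the control protein, ABTAA, an antibody against angiopoietin 2 that switches on the vessel receptor Tie2, and VEGF Trap, a decoy receptor for VEGF. The sources used here do not give strain, genotype or the number of animals behind a library. The p-values therefore reflect the spread among these libraries alone, which may be technical. All groups share the burn, and per the labels' protocols bleeding laser spots were left out, which bears on how much blood the tissue could hold.

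Adult hemoglobin is a tetramer of alpha and beta chains around heme. Its mRNAs are made in erythroid precursors, persist in reticulocytes and fade as red cells age. In the captured tissue they were taken as a mark of blood that was inside vessels or had leaked. Whether other cells of the tissue added globin RNA was not tested. Alas2 encodes the erythroid enzyme of the first step of heme synthesis, and Slc4a1 encodes band 3, the anion exchanger that anchors the red cell skeleton. Hbb-bs and Hbb-bt are the names of the adult beta genes of the single haplotype of the reference strain, and Hbb-b1 and Hbb-b2 are those of the diffuse haplotype. In bulk tissue, fewer red cells and less globin RNA per red cell cannot be told apart.

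In GRCm38 (the build that mm10 names, GENCODE M21), Hba-a1 lies on chromosome 11 from 32283511 to 32284465 and Hba-a2 on the same chromosome from 32296489 to 32297298. Hbb-bt lies on chromosome 7 from 103812524 to 103813996 and Hbb-bs from 103826534 to 103828096. Alas2 lies on chromosome X from 150547375 to 150570638, and Slc4a1 on chromosome 11 from 102348824 to 102366203. RefSeq promoter sequence was found for 5 of the 6 genes, all but Slc4a1. The 250 bases before the transcription start are shown for 4 of them, so that the globin genes, whose levels varied together, can be set beside Alas2, which kept their library order in 2 of 3 groups. The start is that of RefSeq, which lies inside the GENCODE bounds given above: 161, 168, 73 and 42 bases of the windows of Hba-a1, Hbb-bs, Hbb-bt and Alas2 fall within those bounds. Capitals mark, on either strand, GATAA (the core that GATA factors such as the erythroid GATA1 recognize), CACCC (the core recognized by KLF1 and related factors), CCAAT and TATAA. The windows are chr11:32283422-32283671 on the plus strand for Hba-a1, chr7:103827929-103828178 on the minus strand for Hbb-bs, chr7:103813924-103814173 on the minus strand for Hbb-bt and chrX:150547167-150547416 on the plus strand for Alas2, all in GRCm38.p6.
Hba-a1: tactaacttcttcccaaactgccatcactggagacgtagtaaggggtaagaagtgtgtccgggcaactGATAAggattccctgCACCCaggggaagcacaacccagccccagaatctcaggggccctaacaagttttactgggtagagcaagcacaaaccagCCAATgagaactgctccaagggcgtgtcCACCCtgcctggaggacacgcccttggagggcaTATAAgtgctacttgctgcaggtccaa
Hbb-bs: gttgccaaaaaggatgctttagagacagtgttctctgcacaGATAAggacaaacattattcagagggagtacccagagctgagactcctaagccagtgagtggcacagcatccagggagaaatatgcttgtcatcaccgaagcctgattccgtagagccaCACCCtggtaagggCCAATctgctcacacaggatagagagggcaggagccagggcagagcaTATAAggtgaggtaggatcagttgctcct
Hbb-bt: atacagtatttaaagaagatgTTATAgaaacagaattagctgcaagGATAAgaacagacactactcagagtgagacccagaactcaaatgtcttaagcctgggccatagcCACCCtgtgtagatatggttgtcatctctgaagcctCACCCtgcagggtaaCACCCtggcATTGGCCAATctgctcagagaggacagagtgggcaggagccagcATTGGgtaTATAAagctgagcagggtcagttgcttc
Alas2: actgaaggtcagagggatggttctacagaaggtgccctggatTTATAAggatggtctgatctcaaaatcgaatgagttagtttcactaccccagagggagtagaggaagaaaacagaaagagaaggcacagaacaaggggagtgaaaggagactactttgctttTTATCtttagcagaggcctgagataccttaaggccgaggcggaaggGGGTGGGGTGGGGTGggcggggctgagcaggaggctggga

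Each of these 4 windows held 1 GATAA match. The motif CACCC occurred 2 times before Hba-a1, 1 time before Hbb-bs and 3 times each before Hbb-bt and Alas2. CCAAT was found in the 3 globin windows and not in that of Alas2. TATAA began 27, 29 and 28 bases before the start of Hba-a1, Hbb-bs and Hbb-bt, and 207 bases before that of Alas2, where overlapping matches lie on both strands. Hbb-bt had another TATAA on the reverse strand 229 bases before its start. Among 27025 promoter windows of this length, 23.0% held GATAA, 51.3% CACCC, 34.5% CCAAT and 23.5% TATAA, and 1.01% held all 4 as the globin windows did. The window of Hba-a2 was identical to that of Hba-a1 over the 247 bases that aligned. Those of Hbb-bs and Hbb-bt were identical at 182 of 249 aligned columns. A match describes these letters and is not evidence that a factor binds there.

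The 6 rows did not hold 6 independent measurements. Hba-a1 and Hba-a2 had the same count in all 9 libraries. Hbb-bs had the same counts as the row named Hbb-b1, and Hbb-bt the same as Hbb-b2. Of genes with a mean count of at least 100, 53 in all shared their 9 counts with another row. The last 200 bases of the Hba-a1 and Hba-a2 transcripts, the end that this library type reads, were identical at 183 of 184 aligned columns, against 162 of 199 for Hbb-bs and Hbb-bt. The alpha pair was therefore counted once in every sum below, as were the beta pairs, and no value can be assigned to 1 alpha gene rather than the other. The sources used here do not say how a read that matches several genes was counted.

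Library totals ran from 6335805 to 14439835 counts, with ABTAA 3 and VEGF Trap 3 the shallowest at 6335805 and 7346988. Levels are given as CPM, counts scaled to library size by the TMM method, and at these depths a limit of 3 counts corresponds to 0.208 to 0.473 CPM before scaling. The labelled tissue was present by its markers: summed over 10 RPE genes the level was 2034 to 3203 CPM, and over 14 endothelial genes 1909 to 3062 CPM. Skeletal muscle genes differed between groups, with a 12-gene sum of 109 to 161 CPM in Fc, 234 to 487 in ABTAA and 225 to 393 in VEGF Trap, and their part in the results below was not tested. In the Fc tables the column headings speak of knockout controls, unlike the titles, which set the groups here.

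Globin transcripts were readily detected in every library but made up a small part of the RNA. Counted once per pair, the alpha and beta globins held 0.0304%, 0.0404% and 0.0215% of counts in Fc 1, 2 and 3. They held 0.0415%, 0.0370% and 0.0176% in ABTAA 1, 2 and 3, and 0.0273%, 0.0407% and 0.0174% in VEGF Trap 1, 2 and 3. The 95% Wilson interval was 0.0165% to 0.0184% for the lowest of these and 0.0402% to 0.0427% for the highest, so the differences between libraries were far larger than counting error. Reads entered more than once would widen these intervals, which cover counting error only.

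**Figure D1:**
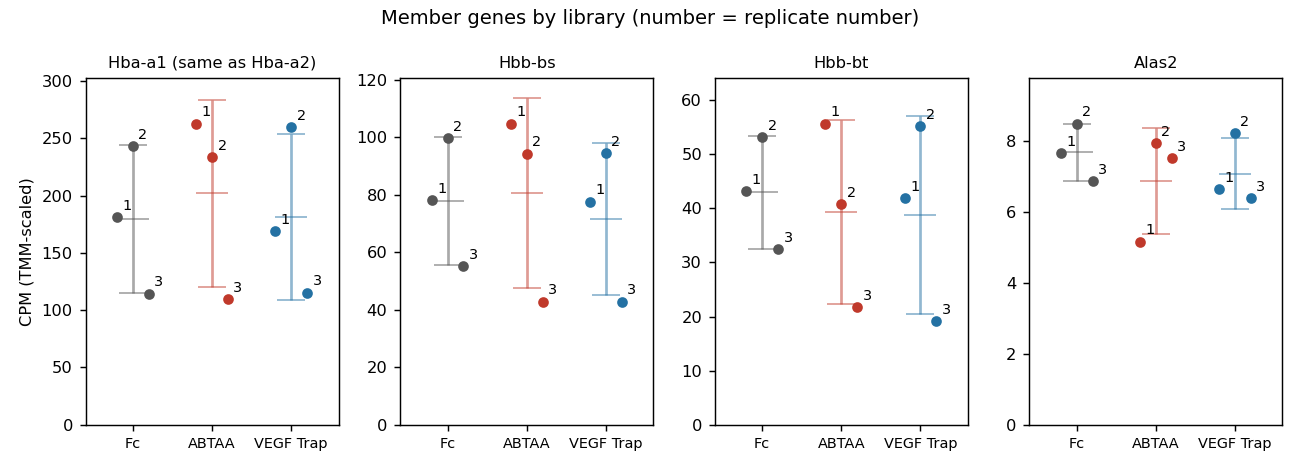
TMM-scaled CPM of Hba-a1, Hbb-bs, Hbb-bt and Alas2 (vertical axes, each from 0) in Fc, ABTAA and VEGF Trap, with 1 point per library marked by its replicate number, and bars for the mean ± SD of 3 libraries. The libraries numbered 3 are the lowest of their group for each globin gene, and the 3 groups span the same range.

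The alpha globin Hba-a1 stood at 181, 243 and 114 CPM in Fc 1, 2 and 3. It stood at 263, 234 and 110 CPM in ABTAA 1, 2 and 3, and at 169, 259 and 115 CPM in VEGF Trap 1, 2 and 3. The lowest library of each group was the one numbered 3, at nearly the same level in all groups, and the ranges of the groups overlapped almost fully. From the lowest library, ABTAA 3, to the highest, ABTAA 1, the level differed 2.40-fold, and both were of the same treatment.

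Hbb-bs, an adult beta chain, followed the same order of libraries within each group. It was measured at 78.1, 99.8 and 55.3 CPM in Fc 1, 2 and 3, at 105, 94.3 and 42.9 CPM in ABTAA 1, 2 and 3, and at 77.6, 94.5 and 42.8 CPM in VEGF Trap 1, 2 and 3. Hbb-bt, the other adult beta chain, was measured at 43.2, 53.2 and 32.5 CPM in Fc, at 55.7, 40.8 and 21.7 CPM in ABTAA and at 41.9, 55.2 and 19.1 CPM in VEGF Trap, in the same order. In each group the library numbered 3 was again the lowest for both genes. The highest library exceeded the lowest 2.44-fold for Hbb-bs and 2.91-fold for Hbb-bt.

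Summed over the alpha and beta genes, the level was 300.4 ± 97.0 CPM in Fc, 322 ± 131 in ABTAA and 292 ± 116 in VEGF Trap (SD, n = 3 each). The sum in Fc 3 was 1.96-fold below that in Fc 2. In ABTAA it was 2.12-fold lower in library 3 than in library 2, and in VEGF Trap 2.31-fold lower. ABTAA 3 and VEGF Trap 3 were also the shallowest libraries, whereas Fc 3, with 12326569 counts, was the deepest of its group. The part of depth in this pattern was not tested. When the replicate number of the titles was added to the fit as a term after these levels had been seen, Hba-a1, Hba-a2 and Hbb-bs were among the 15 genes that passed for it by edgeR, 0.107% of those tested. Within groups the log2 CPM of Hba-a1, Hbb-bs and Hbb-bt had an SD of 0.61, 0.59 and 0.64, where the median of all 14054 tested genes was 0.25. This placed them at the 88.2, 87.2 and 89.3 percentiles of replicate spread.

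The proportions among the globin rows varied much less than their level. Of all globin counts, the alpha share was 59.9%, 61.4% and 56.6% in Fc 1, 2 and 3, 62.1%, 63.4% and 62.9% in ABTAA, and 58.6%, 63.4% and 65.1% in VEGF Trap. Its 95% Wilson intervals ran from 54.7% to 58.5% in Fc 3 and from 62.4% to 67.6% in VEGF Trap 3, so these extremes differed beyond counting error. The 3 ABTAA libraries lay above the 3 Fc libraries by 0.72 percentage points or more, while VEGF Trap spanned both. The nearest libraries, ABTAA 1 (interval 60.6% to 63.6%) and Fc 2 (59.97% to 62.8%), could not be separated by counting error, and 23% of tested genes had no overlap in CPM between these groups. These are shares of counts, not of molecules, because reads entered for several rows cannot be separated.

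The share of Hbb-bt in the beta counts was 35.6%, 34.8% and 37.0% in Fc, 34.7%, 30.2% and 33.7% in ABTAA, and 35.1%, 36.9% and 30.9% in VEGF Trap, in library order. The highest ABTAA library (interval 32.4% to 37.1%) and the lowest Fc library (32.6% to 37.0%) could not be separated by counting error. Both shares moved within these ranges while the globin sum differed 2.43-fold across the 9 libraries.

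**Figure D2:**
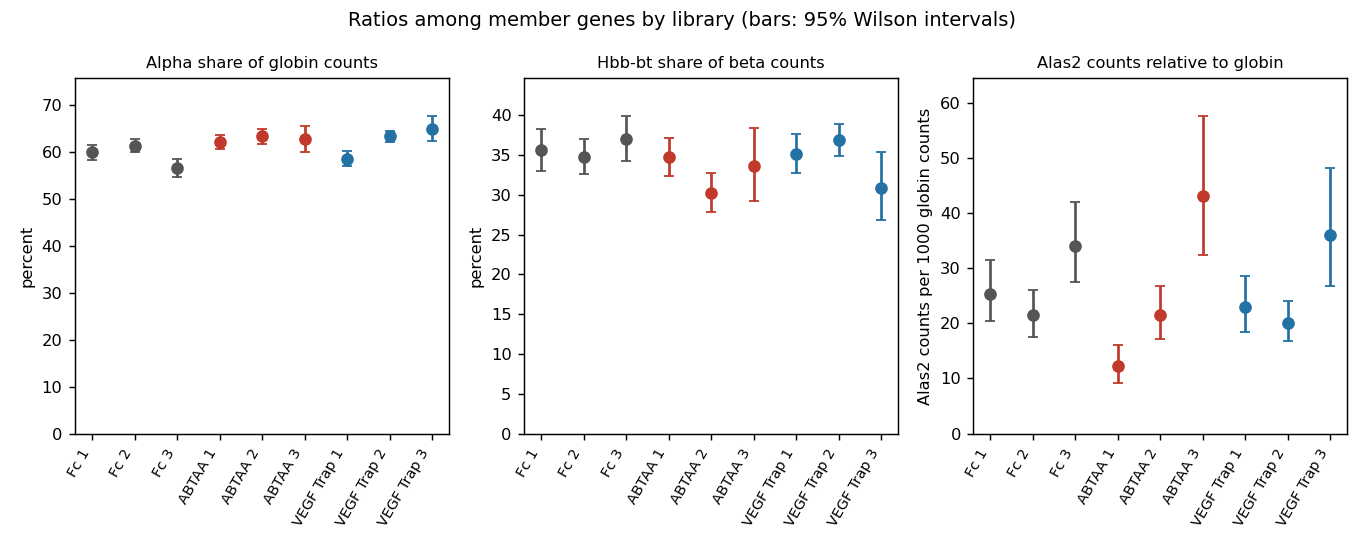
Alpha share of globin counts, Hbb-bt share of beta globin counts (percent) and Alas2 counts per 1000 globin counts (vertical axes from 0) in the 9 libraries, coloured by group, with 95% Wilson intervals as bars. Both globin shares stay within narrow ranges, whereas the Alas2 ratio runs from 12.2 in ABTAA 1 to 43.1 in ABTAA 3.

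Alas2, the heme synthesis enzyme, varied less than the globins and shared their library order in 2 of 3 groups. It stood at 7.66, 8.49 and 6.87 CPM in Fc 1, 2 and 3, at 5.16, 7.93 and 7.51 CPM in ABTAA 1, 2 and 3, and at 6.63, 8.22 and 6.38 CPM in VEGF Trap 1, 2 and 3. Within Fc and within VEGF Trap the order was that of the globins, with library 3 the lowest. ABTAA departed from it: ABTAA 1, which had the most globin, had the least Alas2. The orders rest on few counts: 82, 100 and 90 in Fc 1, 2 and 3, and 80 and 46 in VEGF Trap 1 and 3. Whether they exceed counting error was not tested. Per 1000 globin counts there were 12.2 Alas2 counts in ABTAA 1 (95% Wilson interval 9.24 to 16.1) and 43.1 in ABTAA 3 (32.3 to 57.5), with the other libraries between 20.1 and 36.0. Across the 9 libraries the Pearson correlation of log2 CPM with the summed globin level was 0.12 for Alas2, and 0.99, 0.99 and 0.95 for Hba-a1, Hbb-bs and Hbb-bt, which are parts of that sum. These values are a description over libraries of 3 treatments, and the value for Alas2 includes the ABTAA libraries.

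Alas2 carries limits of its own. Its counts, from 46 to 118 per library, were even in all 9 libraries, as were those of 1616 of the 14167 genes with a count in every library, so 1 count may not be 1 independent read. In GENCODE M21 all of the last 300 bases of Alas2 overlap exons of Apex2, a DNA repair endonuclease gene on the other strand. Apex2 itself had 5 to 46 counts. Without the strand setting of the counting, reads from this stretch cannot be assigned to Alas2 with certainty.

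Slc4a1, the red cell anion exchanger, was almost undetected. Its counts were 1, 4 and 0 in Fc 1, 2 and 3, 0 in each ABTAA library, and 4, 1 and 0 in VEGF Trap 1, 2 and 3. It did not pass the filter on low counts and was not tested in the main fit, and at this depth a difference between groups was not detectable. In ABTAA a count of 0 allows up to 0.304, 0.298 and 0.473 CPM before scaling in libraries 1, 2 and 3.

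The first comparison asks whether activating Tie2 changed the globin and erythroid transcripts, taken as a measure of blood, in the captured lesion. With ABTAA against Fc, 0 of the 5 tested rows, which hold 4 distinct measurements, passed at an adjusted p of 0.05 by the quasi-likelihood test of edgeR, 0 had an unadjusted p under 0.05, and 0 were called by DESeq2 or limma-voom. Over all 14054 tested genes, 1.4% passed and 2370 had an unadjusted p under 0.05. The log2 difference of Hba-a1 was 0.17 ± 0.31 (SE, 95% interval -0.50 to 0.84, adjusted p = 0.836, edgeR). Hbb-bs stood at 0.06 ± 0.30 (-0.58 to 0.70, adjusted p = 0.948), Hbb-bt at -0.11 ± 0.33 (-0.81 to 0.59, adjusted p = 0.911) and Alas2 at -0.16 ± 0.24 (-0.68 to 0.36, adjusted p = 0.80). In 0 of the 5 rows were the libraries of the groups apart, where 23% of tested genes were. The differences were smaller than the spread between replicates, and the interval of Hba-a1 includes changes in either direction.

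The second comparison asks the same of VEGF blockade. With VEGF Trap against Fc, 0 of 5 rows passed by edgeR, DESeq2 or limma-voom, and 0 had an unadjusted p under 0.05 by edgeR. DESeq2 gave no adjusted p for Alas2 in this comparison. Of all 14054 tested genes, 1.02% passed by edgeR and 2162 had an unadjusted p under 0.05. The log2 fold change was 0.02 ± 0.31 for Hba-a1 (SE, 95% interval -0.65 to 0.69, adjusted p = 0.988, edgeR) and -0.11 ± 0.30 for Hbb-bs (-0.75 to 0.53, adjusted p = 0.915). Hbb-bt stood at -0.13 ± 0.33 (-0.82 to 0.56) and Alas2 at -0.11 ± 0.24 (-0.62 to 0.40). The groups overlapped in all 5 rows, against 20.9% of tested genes that did not overlap. Both comparisons use the same Fc libraries.

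Between the treatments, ABTAA against VEGF Trap, 0 of 5 rows passed by any of the 3 tools and 0 had an unadjusted p under 0.05 by edgeR. Of all 14054 tested genes, 0% passed by edgeR and 711 had an unadjusted p under 0.05. Hba-a1 differed by a log2 fold change of 0.16 ± 0.32 (SE, 95% interval -0.51 to 0.83, adjusted p = 0.984, edgeR), Hbb-bs by 0.17 ± 0.30 (-0.47 to 0.81), Hbb-bt by 0.02 ± 0.33 (-0.68 to 0.72) and Alas2 by -0.05 ± 0.25 (-0.58 to 0.47). The groups overlapped in all 5 rows, where 9.88% of tested genes did not. The leave-one-out fits changed the sign of several of these small values without a call, and omitting the 3 libraries numbered 3 gave 0 called rows in each comparison.

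**Figure D3:**
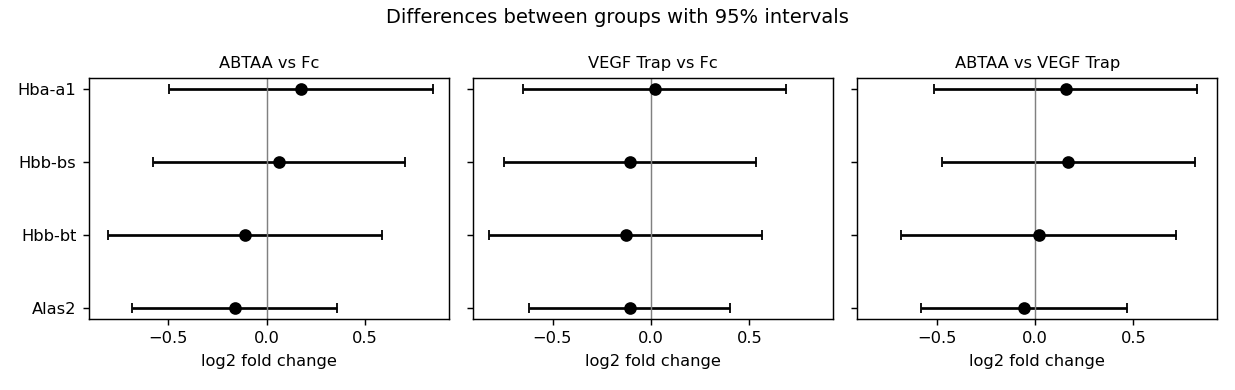
Log2 fold changes (horizontal axis) of Hba-a1, Hbb-bs, Hbb-bt and Alas2 in the 3 comparisons, with 95% intervals from the edgeR fit of 9 libraries. All 12 intervals include 0.

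Other genes of the erythroid program were then examined in 4 lists of 52 genes, leaving out the rows that repeat Hbb-bs and Hbb-bt, and 48 were in the tables. Embryonic and minor globin chains were essentially absent. Of 6 such rows, 4 (Hbb-bh1, Hbb-bh2, Hba-x and Hbq1b) had 0 counts in all libraries, and Hbb-y and Hbq1a had at most 2 counts in a library. Some genes of nucleated erythroid precursors were at the same limit, with at most 5 counts of the erythroid factor Gata1, at most 7 of Klf1 and 0 of Gfi1b and Kel. Others were not: the erythroid and megakaryocyte factor Nfe2 had 90 to 342 counts, Tal1, a factor of blood and endothelial cells, 34 to 152, and the transferrin receptor gene Tfrc, which many dividing cells express, 46 to 216. Of 17 erythroid factors and enzymes, 9 had under 10 counts in every library.

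Of the 48 related genes 27 could be tested, and 0 passed in any of the 3 comparisons by edgeR. An unadjusted p under 0.05 was found for 3 with ABTAA against Fc, 4 with VEGF Trap against Fc and 2 between the treatments. Of all 14054 tested genes, 2370, 2162 and 711 had such a p in these comparisons. The median log2 fold changes of the 27 related genes were -0.01, -0.08 and -0.03, beside medians of 0.00 over all tested genes in each comparison. The share of all genes that pass by DESeq2 was not counted. By that tool, 1 related gene passed in each comparison with Fc and 0 between the treatments. That gene was Blvrb, which encodes biliverdin reductase B and is abundant in red cells but also expressed elsewhere. It stood at 105, 81.6 and 88.6 CPM in Fc, 146, 122 and 110 CPM in ABTAA, and 146, 109 and 143 CPM in VEGF Trap, in library order. Its edgeR log2 fold change was 0.46 ± 0.15 with ABTAA (SE, adjusted p = 0.118) and 0.53 ± 0.15 with VEGF Trap (adjusted p = 0.0834), and by DESeq2 the adjusted p was 0.0362 and 0.0115. All libraries of both treatments lay above those of Fc. Of all tested genes, 23% with ABTAA and 20.9% with VEGF Trap had no overlap with Fc in CPM. Within ABTAA the order of libraries for Blvrb was that of the globins, and within Fc and VEGF Trap it was not.

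Among the other related genes of lowest p were the transferrin receptors. Tfr2 differed on the log2 scale by 1.34 ± 0.52 (SE, adjusted p = 0.207, edgeR) and Tfrc, which imports iron, stood at -0.57 ± 0.26 (adjusted p = 0.27), both for ABTAA against Fc. Fech stood at 0.44 ± 0.17 for VEGF Trap against Fc (adjusted p = 0.223), and Ank1, an ankyrin found in red cells, at 1.32 ± 0.52 in the same comparison (adjusted p = 0.232). These values did not pass the test. Ank1 was at 4.81, 18.05 and 2.22 CPM in VEGF Trap 1, 2 and 3, and at 3.27, 3.39 and 3.67 CPM in Fc. Its highest library was thus VEGF Trap 2, while VEGF Trap 3 lay below all Fc libraries. The next highest was ABTAA 2, at 9.82 CPM. VEGF Trap 2 and ABTAA 2 also had the highest sums of the 12 skeletal muscle genes, 393 and 487 CPM. Whether muscle gave part of the Ank1 counts was not tested. Tfr2 was low, at 0.374, 1.70 and 2.44 CPM in Fc and 3.31, 3.97 and 4.38 CPM in ABTAA, in library order.

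As sums, the related lists varied less than the globins, while single genes in them varied more than those sums. The summed level of 12 heme synthesis and iron genes, including Fech, which inserts iron into heme, and Alad, was 177 to 208 CPM over the 9 libraries. That of 13 membrane and skeleton genes was 224 to 287 CPM, led by Dmtn and Tmod1, which cap or bundle actin in red cells and in other tissues. That of 17 factors and enzymes was 324 to 369 CPM, led by Blvrb, Prdx2 and Bnip3l. The highest library exceeded the lowest 1.17-fold, 1.28-fold and 1.14-fold in these lists, against 2.43-fold for the globins. Within them Alad ran from 15.3 to 35.6 CPM (2.33-fold), Nfe2 from 7.64 to 28.4, Ank1 from 2.22 to 18.05, Blvrb from 81.6 to 146 and Dmtn from 114 to 192.

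Endothelial genes, whose vessels hold the blood, were summed over 14: the level was 1909 to 2429 CPM in Fc, 2930 to 3062 in ABTAA and 2244 to 2473 in VEGF Trap. The ABTAA libraries were thus the highest in endothelial genes while their globin sums ranged from 174 to 423 CPM. With ABTAA against Fc 5 of these 14 genes passed by edgeR, all higher, and 0 passed with VEGF Trap against Fc. Of all 14054 tested genes, 1.4% and 1.02% passed in these comparisons. The sum gives most weight to its most abundant genes.

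Genes of other blood cells shared the order of the globin libraries in some groups only. Neutrophil genes, summed over 13, reached 759 CPM in Fc 1 and were 178 to 323 CPM in the other libraries, whereas the globins of Fc 1 were intermediate in their group. Of these 13 genes, 2 had under 10 counts in every library, and the sum is led by its most abundant genes. Which cells gave these counts was not tested. S100a9, a calcium-binding protein of neutrophils, passed with ABTAA against Fc (log2 -2.43 ± 0.50, SE, adjusted p = 0.035, edgeR), from 197, 35.0 and 54.7 CPM in Fc to 24.8, 13.3 and 14.7 CPM in ABTAA. Without Fc 1 the value was -1.34 (adjusted p = 0.0694, edgeR), and leaving out ABTAA 1, 2 or 3 also ended the call (adjusted p = 0.0637, 0.171 and 0.0799). By limma-voom the adjusted p was 0.0579 and by DESeq2 0.0128. S100a9 was the only one of 7 tested neutrophil genes to pass with ABTAA against Fc by edgeR, where 1.4% of all tested genes passed. There 5 of the 7 had an unadjusted p under 0.05, as did 2370 of all 14054 tested genes. The median log2 fold change of the 7 was -0.74. With VEGF Trap against Fc 0 of the 7 passed, beside 1.02% of all tested genes, and 4 had an unadjusted p under 0.05. In that comparison 2162 of all 14054 tested genes had such a p. Elane, an enzyme of immature neutrophils, had 0 counts.

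Platelet genes, summed over 12, ran from 129 to 175 CPM, and 0 of 8 tested passed in each comparison by edgeR. In the order of the comparisons above, 1, 2 and 2 had an unadjusted p under 0.05, as did 2370, 2162 and 711 of all 14054 tested genes. Among the platelet genes with the most counts were Gp1bb, a subunit of the von Willebrand factor receptor, and Pf4, a chemokine that macrophages also express. Gp1bb stood at 48.9 CPM on average in Fc, 63.1 in ABTAA and 72.9 in VEGF Trap (log2 0.58 ± 0.14 for VEGF Trap against Fc, SE, adjusted p = 0.0607). Gp9, another subunit of that receptor and a defining platelet gene, had 0 counts, and Tubb1, the platelet tubulin, had at most 2. Lymphocyte genes, summed over 11, were 13.0 CPM in VEGF Trap 3, 20.2 in ABTAA 3 and 25.2 to 38.9 CPM in the other libraries, with 0 of 4 tested passing in each comparison and 0 at an unadjusted p under 0.05. Within ABTAA and within VEGF Trap the lymphocyte sum had the library order of the globins, as the platelet sum had within VEGF Trap, and in Fc neither had. The part of these cells in the globin level was not tested.

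**Figure D4:**
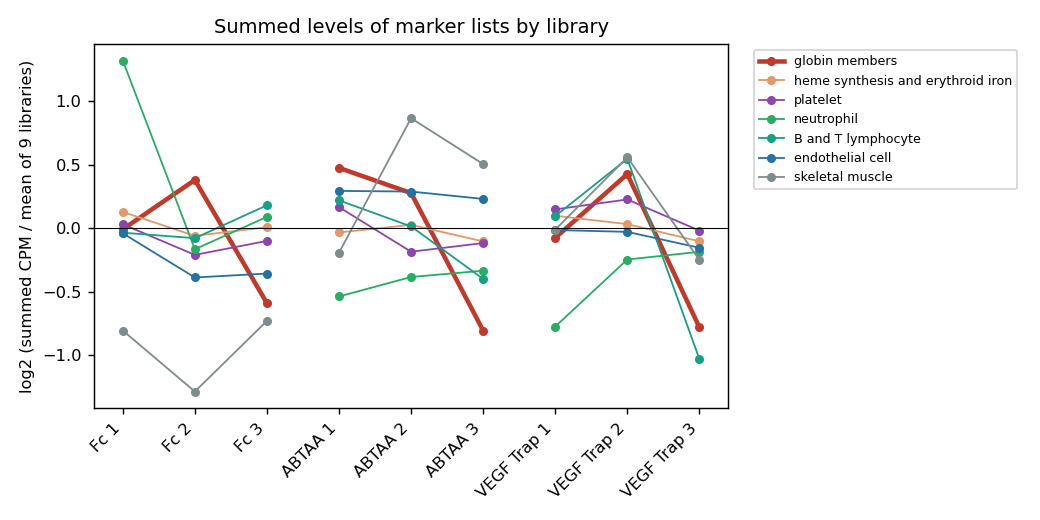
Summed CPM of the globin members and of 6 marker lists in each library, as log2 of the ratio to the mean of the 9 libraries (vertical axis), with lines joining the libraries of a group only to guide the eye. The globins drop in the libraries numbered 3 of each group, the neutrophil list peaks in Fc 1, and the heme synthesis list stays level.

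Genes that take up and break down hemoglobin were described because blood that has left vessels is cleared by macrophages. Of 13 such genes 11 were tested and 0 passed in any comparison by edgeR, with 3, 3 and 0 at an unadjusted p under 0.05. Such a p was found for 2370, 2162 and 711 of all 14054 tested genes. Hmox1, the inducible heme oxygenase, stood at 115, 80.3 and 97.7 CPM in Fc, 66.8, 83.2 and 109 CPM in ABTAA, and 131, 81.0 and 134 CPM in VEGF Trap, in library order. Cd163, the macrophage receptor for hemoglobin bound to haptoglobin, ranged from 13.8 to 26.7 CPM. Both were at their lowest in ABTAA 1, the library with the most globin. Haptoglobin, Hp, was 39.9 CPM in Fc 1 and 4.03 to 9.24 CPM in the other libraries, which is the pattern of the neutrophil list. The iron storage gene Fth1 ran from 1611 to 2301 CPM.

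The genes whose log2 CPM followed the summed globin level most closely over the 9 libraries, among 10040 genes of at least 5 CPM, were Anxa4 (Pearson r = 0.93), Lama2 (0.91), Mfge8 (0.90), Dcun1d3 (0.89), Sft2d2 (0.89), Slc7a1 (0.89), Rbms3 (0.89) and Plac9a (0.89). None of these 8 belongs to the red cell, platelet or leukocyte lists. Their range differed: Plac9a ran from 18.6 to 53.4 CPM, wider than the globin sum, whereas Anxa4, a calcium-dependent membrane-binding protein, was at 31.8 CPM in ABTAA 3 and 42.9 CPM in VEGF Trap 2, and Mfge8, a secreted bridge between dying cells and phagocytes, ranged from 1214 to 1932 CPM. With 9 libraries and this many genes ranked, the correlations describe the ranking only.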

How the data were processed

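The 9 deposited tables give raw, whole-number counts by gene symbol. Per the submitters' processing notes the authors used Bowtie2 and edgeR with mm10, and per the labels' protocols libraries were made from 500 ng of total RNA with a LEXOGEN kit that reads 3 prime ends. The sources used here do not give versions, annotation, counting tool, strand or multi-match settings. Sample titles set the groups. Totals were 6335805 to 14439835 counts. There were 0 lines without a gene name.

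Counts were filtered with filterByExpr (14054 genes left), TMM-scaled, and compared by the quasi-likelihood test of edgeR 4.0.16 (R 4.3.3). All 9 libraries shared 1 model, leaving 6 residual degrees of freedom. P-values were adjusted by Benjamini-Hochberg over all tested genes within each contrast, with a threshold of 0.05. The SE was taken as the size of the log2 value over the root of its F. The fit was tested on simulated data. Alternatives were DESeq2 1.42.0, limma-voom (limma 3.58.1), RLE scaling, library totals, no filter, 10 counts in 6 libraries, only the compared groups, the replicate block, counts over their common divisor, each library left out and, chosen after seeing the data, the libraries numbered 3 left out together. Identity is over aligned columns with free ends.

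Members and lists were chosen with earlier results of these data known. Named genes were the 6 members, list genes past the threshold, in lists without a call the most abundant or lowest in p, and the 8 genes most like the globin sum by Pearson r (prior count 2). Marker lists of tissues other than blood are given by sums or counts, and other genes named at or near 0 were chosen after their values were seen. Values of 1 list gene are not reported here.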

Additional observations from a re-analysis of the deposited data

How the results depend on the processing

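Under all 19 alternatives, 0 member rows were called in each comparison. The lowest adjusted p was 0.476 over the 5 rows tested in the main fit. Slc4a1 is outside this minimum, as it was fitted only by DESeq2 and without a filter, where it was not called. For VEGF Trap against Fc, DESeq2 gave no adjusted p for Alas2. With the replicate number as a block 0 members were called. S100a9, added after its call was seen, stood between -2.83 and -1.34 without single libraries and at -2.61 (adjusted p = 0.116, edgeR) without the libraries numbered 3. Related erythroid genes called for ABTAA against Fc were 1 by DESeq2 and 1 without a filter (Blvrb). For VEGF Trap against Fc they were 1 by DESeq2, 2 without a filter (Blvrb and Ank1) and 1 with the replicate block. The highest count of Ank1, 259, was in VEGF Trap 2. For ABTAA against VEGF Trap, 1 was called without a filter (Add2). Otherwise 0 were called, and the cause was not tested. The share of all genes called by DESeq2 or without a filter was not counted, so these calls cannot be set against it. Without a filter the adjusted p of S100a9, ABTAA against Fc, was 1.4e-14 by edgeR, where the main fit gave 0.035. The libraries were not treated as paired by replicate number: only 2 of 9 same-numbered pairs had a correlation of deviations over 0.1 (0.01 to 0.11). The median was 0.037 in these pairs and -0.025 (-0.092 to 0.037) in the 18 pairs of different number. A limit of 0.1 cannot decide whether the numbers mark a weak pairing. With the block, the count of all called genes was 334, 300 and 1 in the 3 comparisons after 197, 144 and 0, and Hba-a1 stood at 0.15 ± 0.14, 0.01 ± 0.14 and 0.15 ± 0.14 (SE).

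Signs turned as follows, with no call. Hba-a1 and Hba-a2, VEGF Trap against Fc, were -0.050 with library totals. Hbb-bt was -0.018 by limma-voom between the treatments, and with the libraries numbered 3 omitted together, an alternative chosen after seeing the data, 0.011 for VEGF Trap against Fc and -0.012 between the treatments. Leaving out single libraries gave, for ABTAA against Fc, -0.076 to 0.47 (Hba-a1 and Hba-a2), -0.17 to 0.36 (Hbb-bs), -0.44 to 0.17 (Hbb-bt) and -0.29 to 0.010 (Alas2). For VEGF Trap against Fc it gave -0.33 to 0.30 (Hba-a1 and Hba-a2), -0.36 to 0.15 (Hbb-bs) and -0.47 to 0.18 (Hbb-bt). Between the treatments it gave -0.082 to 0.51 (Hba-a1 and Hba-a2), -0.086 to 0.46 (Hbb-bs), -0.31 to 0.36 (Hbb-bt) and -0.18 to 0.12 (Alas2).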

Other observations

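After the globin levels of the libraries numbered 3 had been seen, the replicate number of the titles was tested as a term of the fit that has it as a block, over all 14054 genes. By edgeR, 15 genes (0.107%) passed for this term. They included Hba-a1 and Hba-a2 (adjusted p = 0.015) and Hbb-bs (adjusted p = 0.015), together with Hbb-b1, whose counts repeat those of Hbb-bs. Libraries numbered 3 stood below those numbered 1 by a log2 difference of -0.84 for Hba-a1 and -0.88 for Hbb-bs, and in 3 of 3 groups the library numbered 3 was the lowest. Hbb-bt differed by -0.95 (adjusted p = 0.113) and Alas2 by 0.09 (adjusted p = 0.864), and neither passed. The other genes that passed were Plac9a and Plac9b, Tmem254a, Tmem254b and Tmem254c, Slc7a5, Col1a1, Ffar2, the lens crystallins Cryaa and Crygb, and the adenylate kinase Ak1. Several of these are near-identical copies, so the 15 rows are fewer independent measurements. Of 27 related erythroid, 8 platelet, 7 neutrophil and 4 lymphocyte genes tested, 0 passed for the number. No label says what a number stands for, and the test was chosen on the same data that showed the pattern.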
